A study of Rattus norvegicus with 421 samples.

Results

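Cyproterone acetate (CPA), a synthetic steroid with progestin and antiandrogen activity, was given to rats once a day by gavage at 100 mg/kg, and liver RNA was measured after 1, 3, 7 and 14 days of dosing. The 12 arrays whose labels name CPA, 3 per day, were taken from the series by their labels alone and made up 2.85% of its arrays, and each day was set against its own 3 vehicle arrays, labelled CO_1A, which gave 12 vehicle arrays. The series as a whole profiled rat liver after short treatments with carcinogens and other chemicals on the RAE230A array, with 1 animal per array. All animals were male Wistar Hanover rats aged 8 to 10 weeks, of the strain labelled Crl:WI[Gl/BRL/Han]IGS BR, and the CO_1A animals received corn oil. Of the 5 animals of a treatment group, 3 with at least some liver changes on histopathology were chosen for the arrays. For the vehicle groups the account of the study states no such choice. The livers were taken 1 day after the last dose, and a single dose and a single sex were studied. The same vehicle arrays served other compounds of the series, among them 1,4-dichlorobenzene (DCB), which is compared with CPA at the end, as is phenobarbital (PB), whose own vehicle arrays, labelled CMC_1B, came from rats given carboxymethylcellulose.

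CPA is known in the rat as a liver mitogen and as an activator of the pregnane X receptor (PXR), a nuclear receptor that binds steroids and drugs and switches on cytochromes P450, conjugating enzymes and transporters. A liver mitogen makes resting hepatocytes enter the cell cycle without prior tissue loss, and the cycle runs in order through cyclin D, the loading of the MCM helicase on DNA, replication with PCNA as the sliding clamp, and mitosis under the kinase Cdk1. The time course therefore asks which of these gene groups moved early and which were still changed after 2 weeks of dosing.

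Levels are the deposited log2 values, so that a difference of 1 is a doubling. A change is the CPA mean minus the vehicle mean of the same day, 3 against 3 arrays. It is given ± the standard error (SE) of the limma fit, whose spread is drawn from all groups of the series. A gene was called where the Benjamini-Hochberg adjusted p over all probe sets was below 0.05 and the change was at least 1.5-fold. Over the CPA and vehicle arrays the median correlation of an array with the others lay between 0.9848 (CPA array 3 of day 1) and 0.9916, a narrow range, and single arrays that stood out in a gene group are named beside its result. The first principal component (35.6% of the variance) separated all CPA arrays from all vehicle arrays, and the second (12.2%) had the 3 CPA arrays of day 1 at one end. Hepatocyte markers were high on all arrays, with a mean over 18 markers of 12.994 to 13.374. This mean was lower in CPA without overlap on day 1 (13.119 to 13.161 against 13.306 to 13.337), day 3 (12.994 to 13.187 against 13.258 to 13.374) and day 7 (13.131 to 13.220 against 13.283 to 13.361). The groups overlapped on day 14. On day 1 the marker Cps1 was called lower, while albumin (Alb) read 15.10, 15.12 and 15.12 in CPA and 15.10, 15.11 and 15.10 in vehicle. Each gene was read from its brightest probe set, and other probe sets of the same gene often did not pass: of 97 genes called on day 1 that had another probe set, 36 had one called the same way, and on days 3, 7 and 14 it was 20 of 72, 17 of 40 and 21 of 65.

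The response was broadest on day 1, with DNA replication genes and drug-metabolizing enzymes among the rises. Of 10411 genes, 245 were called higher (2.35%) and 237 lower (2.28%) on day 1. On day 3, 150 were higher (1.44%) and 200 lower (1.92%). On day 7 the counts were 67 higher (0.644%) and 125 lower (1.2%), and on day 14 they were 70 higher (0.672%) and 213 lower (2.05%). The number of higher genes was smaller after day 3, while the number of lower genes on day 14 was close to that of day 3. The median change over all genes was between -0.00166 and 0.0205 on the 4 days.

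**Figure D1:**
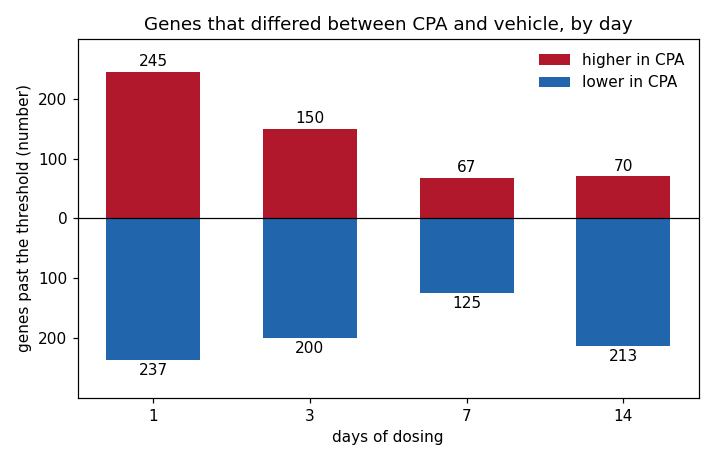
Number of genes past the threshold against vehicle on each day of dosing, higher in CPA above the zero line and lower in CPA below it. The higher genes number 245, 150, 67 and 70 on days 1, 3, 7 and 14, and the lower genes 237, 200, 125 and 213.

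Of 357 genes called higher on at least 1 day, 257 were called on 1 day only, and of 415 called lower, 219 were. These are counts of calls, and not of genes shown to change on 1 day alone: the 245 genes called higher on day 1 had a median change of 0.41 on day 3. The 66 genes called higher on both day 1 and day 3 were 26.9% of the day 1 genes and 44% of the day 3 genes. Days 7 and 14 shared 42 higher genes (62.7% and 60%) and 94 lower genes (75.2% and 44.1%). Across the 10411 genes, which are not independent replicates, the changes of days 7 and 14 had a Pearson r of 0.762 and those of days 1 and 14 an r of 0.528; each day had its own vehicle arrays.

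Changes that held on all 4 days were found for 25 genes that rose and 48 that fell. The sustained rises included drug-metabolizing enzymes and their partners (Ces2c, Aldh1a1, Cyp3a23-3a1, Por, Ephx1, Gsta3, Ugt2b1, Ugdh, Gsr, Akr7a3), the transporters Slco1a4 and Abcg5, and genes of other kinds, such as Psat1, Tkt, Gpi, Anxa7 and Slc39a4. Zwint, a kinetochore gene outside the mitosis list described below, was also called higher on all 4 days. The sustained falls included lipid enzymes (Crot, Cyp4a1, Fads2, Acadsb), the growth hormone receptor Ghr, other genes of hepatocytes (Car3, Mug1, Serpina6, Gulo, Rgn) and genes of cells other than hepatocytes (C1qc, Cd68, Fcer1g, Col3a1, Col14a1, Lrat). The other probe sets of Tkt, Anxa7 and Col14a1 were not called on any day. Those of Por, Slco1a4, Crot, Car3 and Gulo were called the same way on all 4 days, and that of Ghr on days 1, 3 and 7. A test of the difference itself, the mean change of days 7 and 14 minus that of days 1 and 3, passed for 8 genes in the positive direction (0.0768%) and for 36 in the negative direction (0.346%). From that test, 35 genes were classed as early rises, 6 as early falls, 3 as late rises and 1 as a late fall. The early rises held 11 members of the replication list described next and 7 of the mitosis list, and the late rises were Abcc3, Sult2a2 and Hsd17b7. With an array left out, the late minus early test called from 9 to 14 replication members and from 3 to 13 mitosis members. The mitosis count was 3 in a fit of the compared groups only, where Stmn1 (adjusted p = 0.0729) and Cdk1 (0.0733) did not pass. In a fit of the compared groups only, the late minus early difference passed for Abcc3 but not for Sult2a2 (adjusted p = 0.221) or Hsd17b7 (0.107).

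DNA replication genes were the clearest early group. Of 39 measured members of the list, 22 rose on day 1 and 8 on day 3, none fell, and none was called on day 7 or day 14. The median change of the list was 0.63, 0.28, 0.01 and 0.03 on the 4 days. All 6 subunits of the MCM helicase, Mcm2 to Mcm7, were among the genes that rose on day 1, together with the clamp Pcna, the clamp loaders Rfc2, Rfc3 and Rfc4, primase (Prim1), the polymerase delta subunits Pold1 and Pold2, the ligase Lig1, the flap nuclease Fen1, the nucleotide enzymes Rrm1, Dut and Tk1, and cyclin E2 (Ccne2).

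Mcm6 had the largest change of the group. The 3 CPA arrays of day 1 read 8.60, 7.64 and 8.55 for Mcm6, and the vehicle arrays read 5.82, 5.53 and 5.62. The groups were far apart, and Mcm6 rose by 2.61 ± 0.25 (adjusted p = 2.61e-18). On day 3 the CPA arrays read 6.82, 8.13 and 6.34 against 5.68, 5.86 and 5.75, still without overlap (1.34 ± 0.25, adjusted p = 2.16e-05), with array 2 far above the other two. By day 7 the Mcm6 levels overlapped, 5.71, 5.97 and 5.62 in CPA against 6.16, 5.33 and 5.54, and on day 14 the change was 0.01 ± 0.25.

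Pcna, Mcm7 and Mcm4 followed the same course. For Pcna the CPA arrays read 11.08, 10.79 and 11.43 on day 1 against 9.47, 9.26 and 9.55 in vehicle, a rise of 1.67 ± 0.16 (adjusted p = 2.61e-18). All 3 CPA arrays lay above all 3 vehicle arrays on day 1 and again on day 3, when Pcna rose by 0.79 ± 0.16 (adjusted p = 0.000105), but the groups overlapped on day 7 (0.18 ± 0.16) and day 14 (0.18 ± 0.16). Mcm7 rose by 1.72 ± 0.16 on day 1 and 0.77 ± 0.16 on day 3, and Mcm4 by 1.84 ± 0.18 and 0.70 ± 0.18. From day 1 to day 3 the change became smaller for 7 members of the list, a count that went from 2 (without CPA array 3 of day 1 or of day 3) to 11 with an array left out, and the step was -0.88 ± 0.23 for Pcna (adjusted p = 0.0224) and -0.95 ± 0.23 for Mcm7 (adjusted p = 0.0101). None of these 7 steps was called in a fit of the compared groups only.

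The array with the highest replication signal differed by day. On day 3, CPA array 2 was the highest of the 3 CPA arrays for 35 of 39 replication genes and 49 of 51 mitosis genes. Without it, 1 replication gene in place of 8 and 1 mitosis gene in place of 6 were called on day 3. Without vehicle array 1 of day 3 the counts were 5 and 2, without CPA array 3 the mitosis count was 10, and a fit of the compared groups only called 4 and 2. The counts of day 3 thus turned on single animals, whereas on day 1 the replication count stayed between 16 and 24 with any 1 array left out.

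Members of the mitosis list also rose on days 1 and 3. Of 51 measured members, 15 rose on day 1 (median change of the list 0.42) and 6 on day 3 (0.31), none rose on days 7 and 14, and the phosphatase Cdc25b was lower on day 14 (-0.77 ± 0.22). Cdk1, the kinase that drives entry into mitosis, read 7.75, 7.55 and 8.69 in CPA on day 1 against 7.10, 6.81 and 6.88 (1.07 ± 0.33, adjusted p = 0.013). On day 3 it read 7.82, 8.97 and 7.61 against 6.67, 7.35 and 7.60, a rise of 0.92 ± 0.33 with an adjusted p of 0.0496. The groups did not overlap on either day, but on day 3 the lowest CPA array lay at the level of the highest vehicle array. CPA array 3 was the highest for 48 of 51 mitosis genes on day 1, and without it 3 in place of 15 were called. The kinetochore genes Spc24 (1.74 ± 0.28) and Spc25 (1.17 ± 0.25), the tubulin-binding protein Stmn1 (1.25 ± 0.34), topoisomerase Top2a (0.89 ± 0.24; 0.22 and not called on its other probe set) and the proliferation marker Mki67 (0.79 ± 0.25) were also among the 15.

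Cyclin D1 (Ccnd1), which links growth signals to the cycle, rose on day 1 only. It read 9.91, 9.91 and 9.93 on the CPA arrays of day 1 and 8.98, 8.43 and 8.89 on the vehicle arrays (1.15 ± 0.26, adjusted p = 0.000243). On days 3, 7 and 14 each CPA array lay below each vehicle array, with changes of -0.46 ± 0.26, -0.61 ± 0.26 and -0.63 ± 0.26 that did not pass the test. The step from day 1 to day 3 was -1.61 ± 0.36 (adjusted p = 0.00398). Of 49 genes of growth signals, cyclin D and the immediate early response, 4 rose on day 1, namely Ccnd1, Gadd45b, the polyamine enzyme Odc1 and the methionine enzyme Mat2a, and 4 fell, among them the growth factor receptor Egfr (-1.70 ± 0.62, adjusted p = 0.049). The other Egfr probe set was at -0.18 and that of Mat2a at 0.18, and neither was called. The Egfr call was also lost without CPA array 1 or 3 or vehicle array 1 or 2, with adjusted p from 0.105 to 0.274.

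Mdm2, the ubiquitin ligase that keeps p53 low and is itself a p53 target, was 1 of 18 p53 targets and DNA repair genes and the only one that rose on day 1. Its CPA arrays read 9.16, 8.85 and 8.78 against 7.38, 7.37 and 7.51 (1.51 ± 0.19, adjusted p = 3.51e-12), with a wide gap between the groups. By day 3 its change was 0.32 ± 0.19, and the test of the step gave -1.19 ± 0.26 (adjusted p = 0.00311). Cdkn1a, the cell cycle inhibitor p21 and another p53 target, overlapped between the groups on day 1 (8.51, 8.41 and 9.09 against 9.38, 9.32 and 9.03; -0.57 ± 0.31). Sesn1 and Xpc were lower on day 1, and the median change of the list was -0.05.

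**Figure D2:**
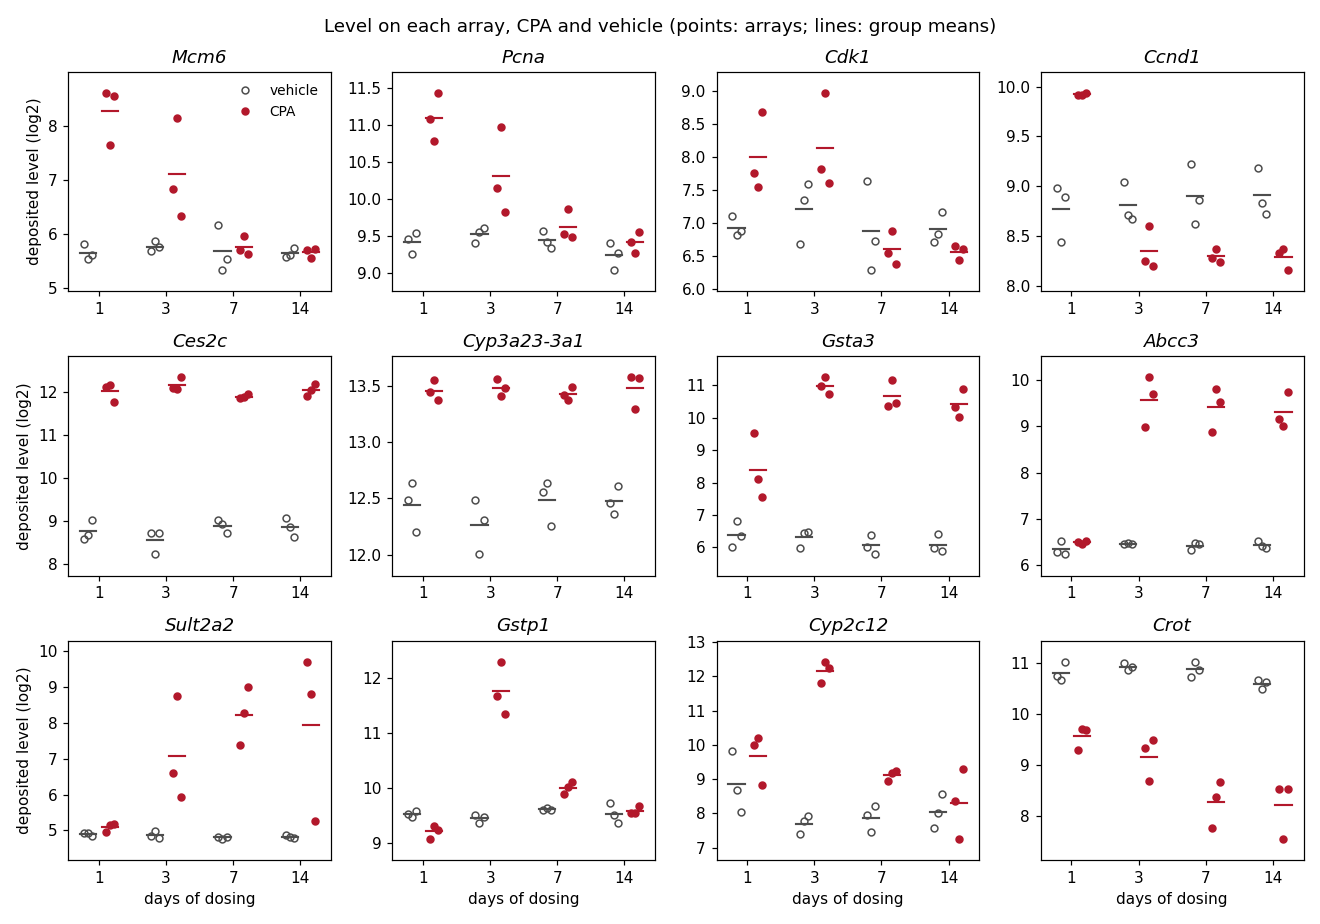
Deposited log2 level of 12 genes on each CPA array (filled) and each vehicle array (open) by day of dosing, with a line at each group mean. Mcm6, Pcna and Cdk1 are high on days 1 and 3, Ccnd1 on day 1, Ces2c and Cyp3a23-3a1 on all days, Abcc3 from day 3, and Gstp1 and Cyp2c12 peak on day 3, while Crot is low on all days.

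The promoters of 3 early rising genes and 1 sustained riser are shown because they carry the letter patterns usually named for these 2 kinds of gene: the site of the E2F factors, which govern entry into replication, the CCAAT box, common in cell cycle promoters, and the short site bound by nuclear receptors such as PXR. The sequences are from RefSeq on build GRCr8, 5′ to 3′ on the strand of the gene, 250 bases before to 50 after the start. Capitals mark the letters that were searched on both strands, where hits may overlap: TTTGGCGC, TTTCGCGC, TTTCCCGC and TTTGGCGG for E2F, CCAAT, and AGGTCA and AGTTCA for the nuclear receptor site. The windows are chr13:42404303-42404602 on the minus strand (Mcm6), chr12:22163129-22163428 on the minus strand (Mcm7), chr20:19265043-19265342 on the plus strand (Cdk1) and chr12:14398754-14399053 on the minus strand (Cyp3a23-3a1).
Mcm6: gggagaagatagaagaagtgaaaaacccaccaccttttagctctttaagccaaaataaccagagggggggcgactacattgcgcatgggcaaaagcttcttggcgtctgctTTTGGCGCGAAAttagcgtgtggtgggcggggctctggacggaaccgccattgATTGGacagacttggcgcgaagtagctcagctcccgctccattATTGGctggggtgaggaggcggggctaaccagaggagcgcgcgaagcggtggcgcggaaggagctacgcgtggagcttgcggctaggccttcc
Mcm7: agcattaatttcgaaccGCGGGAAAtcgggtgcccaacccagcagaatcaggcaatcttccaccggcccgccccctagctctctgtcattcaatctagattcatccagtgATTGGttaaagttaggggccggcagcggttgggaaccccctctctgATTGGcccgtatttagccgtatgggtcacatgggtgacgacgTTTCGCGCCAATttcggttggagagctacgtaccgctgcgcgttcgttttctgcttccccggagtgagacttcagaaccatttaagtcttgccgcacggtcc
Cdk1: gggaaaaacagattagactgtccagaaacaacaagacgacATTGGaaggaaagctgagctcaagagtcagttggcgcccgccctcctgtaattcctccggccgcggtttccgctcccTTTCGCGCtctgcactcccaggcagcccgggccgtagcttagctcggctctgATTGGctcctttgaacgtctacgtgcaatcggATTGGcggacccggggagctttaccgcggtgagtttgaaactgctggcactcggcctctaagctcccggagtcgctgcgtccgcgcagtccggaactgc
Cyp3a23-3a1: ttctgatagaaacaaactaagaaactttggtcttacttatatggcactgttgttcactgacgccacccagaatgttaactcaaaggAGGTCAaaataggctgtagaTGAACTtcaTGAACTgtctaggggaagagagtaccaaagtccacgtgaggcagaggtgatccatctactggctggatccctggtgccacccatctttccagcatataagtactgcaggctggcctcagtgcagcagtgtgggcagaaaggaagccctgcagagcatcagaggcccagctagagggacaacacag

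In the Mcm6 window 2 E2F forms overlapped, at -139 on the strand of the gene and -135 on the other strand, counted from the start, and CCAAT stood at -86 and -43 on the other strand. Mcm7 had E2F letters at -233 and -52, and Cdk1 at -133. E2F letters were present in 633 of 27457 promoters (2.31%) and in 321 of the 8630 promoters of genes on the array (3.72%). They were present in 17 of the 35 replication genes with a promoter sequence (48.6%), in 4 of 46 mitosis genes (8.7%) and in none of 21 sustained risers. Within the replication list they were present in 7 of the 20 genes that rose on day 1 and in 10 of the 15 that were not called. CCAAT was present in 37.7% of all promoters, in 60% of the replication genes and in 34 of 46 mitosis genes (73.9%). Nuclear receptor letters were present in 27.4% of all promoters, in 21.2% of those of genes on the array and in 5 of 21 sustained risers (23.8%). The Cyp3a23-3a1 window, shown because it carries them, held them at -164, -144 and -135; the last 2 form a direct pair with 3 bases between, which 11 of 27457 promoters had (0.0401%), this gene among them. These are matches of letters, not measured binding.

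The list of drug oxidation enzymes regulated by PXR and its relative CAR had members that rose on each day. Of 18 measured, 7, 8, 5 and 6 rose on days 1, 3, 7 and 14 and none fell, 5 of them on all 4 days (Ces2c, Aldh1a1, Por, Cyp3a23-3a1 and Ephx1), with list medians of 0.27, 0.26, 0.23 and 0.39. Members that many paralogs resemble, such as the Cyp3a, Sult2a, Gsta, Gstm and Ugt2b genes, may share signal on these probe sets, and the probe set for Cyp2b1 and Cyp2b2 carries both names and is not reported.

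The carboxylesterase Ces2c changed most. Its CPA arrays read 12.11, 12.15 and 11.77 on day 1 against 8.59, 8.66 and 9.02 in vehicle, a rise of 3.26 ± 0.23 (adjusted p = 9.14e-32). Nearly the same level was read on day 14, 11.91, 12.04 and 12.18 against 9.07, 8.85 and 8.62 (3.20 ± 0.23). The groups lay far apart on all 4 days, and the late minus early difference was -0.33 ± 0.23 (adjusted p = 0.807), so no trend over the 2 weeks was detected.

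Cyp3a23-3a1, a cytochrome P450 that oxidizes steroids and drugs, read 13.45, 13.55 and 13.38 in CPA on day 1 against 12.49, 12.63 and 12.20, and rose by 1.02 ± 0.16 (adjusted p = 8.03e-08). On days 3, 7 and 14 the change was 1.22 ± 0.16, 0.95 ± 0.16 and 1.00 ± 0.16. The CPA and vehicle arrays did not overlap on any day. Por, the reductase that passes electrons to all microsomal P450 enzymes, rose by 1.35 ± 0.22, 1.75 ± 0.22, 1.31 ± 0.22 and 1.04 ± 0.22 on the 4 days, and the epoxide hydrolase Ephx1 by 0.84 ± 0.17, 1.16 ± 0.17, 1.26 ± 0.17 and 1.26 ± 0.17. The retinal dehydrogenase Aldh1a1 rose by 2.17 ± 0.47 on day 1 and 3.05 ± 0.47 on day 14.

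Alas1, which makes the first step of haem synthesis, was called on days 1 and 3 only. It read 13.02, 12.55 and 12.56 in CPA on day 1 against 11.16, 10.67 and 10.26 (2.01 ± 0.30, adjusted p = 9.43e-09) and rose by 1.55 ± 0.30 on day 3. The groups overlapped on days 7 and 14, with changes of 0.42 ± 0.30 and 0.44 ± 0.30. Its late minus early difference was -1.36 ± 0.30 (adjusted p = 0.00253), and Alas1 was the 1 member of this list called late against early.

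Among conjugating enzymes the count of rises was highest on day 3. Of 34 measured, 7 rose on day 1, 12 on day 3, 7 on day 7 and 10 on day 14, and 2, 3, 1 and 1 fell. Without CPA array 1 or vehicle array 2, the count of rises on day 1 was 4. Gsta3, a glutathione transferase, read 9.53, 8.10 and 7.56 in CPA on day 1 against 6.02, 6.82 and 6.34 (2.00 ± 0.51, adjusted p = 0.00184); without CPA array 1 the change was 1.43 (adjusted p = 0.0877). On day 3 it read 10.97, 11.24 and 10.72 against 5.99, 6.45 and 6.48, a rise of 4.67 ± 0.51 (adjusted p = 1.05e-14), the largest of all genes that day under the rule used to name genes. The groups were well apart from day 3 on, with 4.60 ± 0.51 on day 7 and 4.33 ± 0.51 on day 14. Ugdh, which makes the sugar donor for glucuronides, rose by 0.92 ± 0.14, 0.96 ± 0.14, 0.78 ± 0.14 and 0.69 ± 0.14, and the transferase Ugt2b1 by 1.48 ± 0.31, 1.43 ± 0.31, 1.24 ± 0.31 and 1.30 ± 0.31. Sult1c3, a sulfotransferase of male liver, was lower on days 1, 3 and 7, at -1.30 ± 0.15 on day 3.

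Of 19 transporters, 4, 5, 4 and 4 rose and 1, 1, 2 and 2 fell on the 4 days. Abcg5, a subunit of the pump that sends cholesterol into bile, read 10.21, 10.44 and 10.25 in CPA on day 1 against 8.05, 8.03 and 8.06 (2.25 ± 0.32, adjusted p = 1.29e-09) and was still higher on day 14 (1.5 ± 0.32). Its partner Abcg8 rose by 1.55 ± 0.23 on day 1 and 1.37 ± 0.23 on day 3 but overlapped between the groups on days 7 (0.30 ± 0.23) and 14 (0.57 ± 0.23). The late minus early difference was -1.03 ± 0.23 for Abcg8 (adjusted p = 0.00373) and of like size but not called for Abcg5 (-0.94 ± 0.32, adjusted p = 0.156). Slco1a4, an uptake transporter, rose by 1.49 ± 0.22, 1.71 ± 0.22, 1.19 ± 0.22 and 1.60 ± 0.22, and the organic anion carrier Slc22a8 was lower on all days, at -0.80 ± 0.22, -1.27 ± 0.22, -0.95 ± 0.22 and -1.84 ± 0.22.

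**Figure D3:**
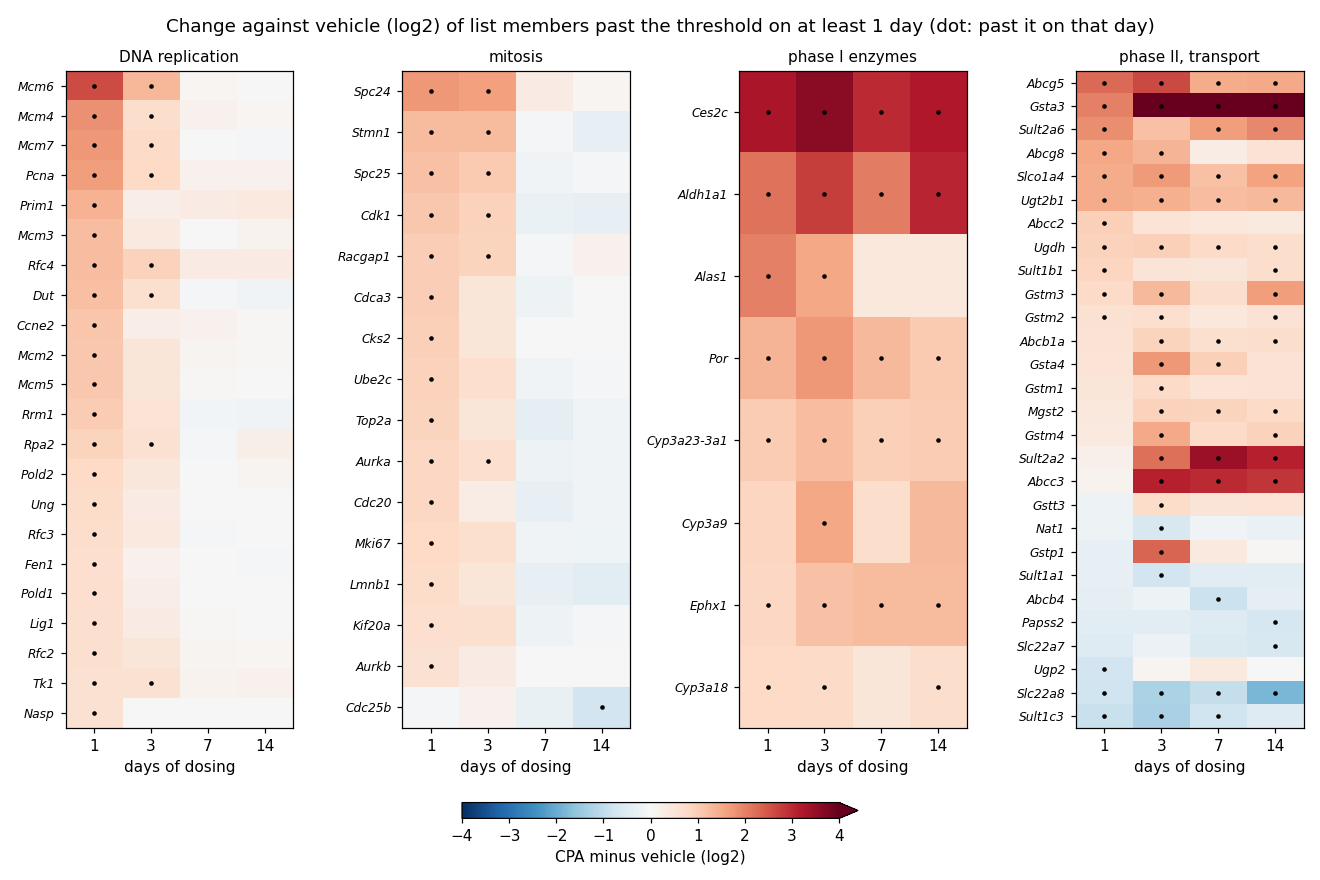
Change against vehicle (log2, colour) on each day for the members of the replication, mitosis, drug oxidation, conjugation and transport lists that were called on at least 1 day, with a dot where the gene was called. The 2 cell cycle panels are red on days 1 and 3 and near zero later, while most enzymes of the drug oxidation panel keep their colour over the 4 days and Abcc3 and Sult2a2 start on day 3.

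Of the enzyme and transporter lists, 2 genes were classed as late rises, and both were already high on day 3. Abcc3, a pump that exports conjugates to the blood, read 6.51, 6.46 and 6.52 in CPA on day 1 against 6.29, 6.52 and 6.24, where the groups overlapped (0.15 ± 0.20). On day 3 it read 8.99, 10.05 and 9.69 against 6.46, 6.48 and 6.46 (3.11 ± 0.20, adjusted p = 5.38e-35). The levels then held, with 2.99 ± 0.20 on day 7 and 2.87 ± 0.20 on day 14, and the step from day 1 to day 3 was 2.96 ± 0.29 (adjusted p = 1.68e-17).

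Sult2a2, a sulfotransferase for steroids and bile acids, was near the bottom of the scale in all vehicle arrays (4.77 to 5.00) and varied widely between CPA animals. Its CPA arrays read 4.97, 5.14 and 5.18 on day 1, 6.59, 8.75 and 5.92 on day 3, 7.38, 8.26 and 8.99 on day 7, and 9.71, 8.81 and 5.27 on day 14. The groups did not overlap on any day, although array 3 of day 14 was close to vehicle. The changes were 0.20 ± 0.25, 2.21 ± 0.25, 3.41 ± 0.25 and 3.10 ± 0.25. The SE is drawn from all groups of the series and understates this spread: in a fit of the compared groups only the adjusted p was 0.0584 on day 3, 0.0836 on day 14 and 0.221 for the late minus early difference.

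A few genes changed sharply on day 3 alone. Cyp2c12, a P450 of female rat liver, read 11.81, 12.43 and 12.26 in CPA on day 3 against 7.39, 7.78 and 7.92, a rise of 4.47 ± 0.48 (adjusted p = 5.35e-15). On day 1 its arrays overlapped (0.82 ± 0.48), and on days 7 and 14 the changes were 1.25 ± 0.48 and 0.25 ± 0.48, neither called. Gstp1, a glutathione transferase that resting rat hepatocytes express weakly, read 11.66, 12.29 and 11.34 on day 3 against 9.51, 9.36 and 9.48 (2.31 ± 0.17, adjusted p = 9.82e-29). On day 1 the 3 CPA arrays for Gstp1 lay just below vehicle (-0.31 ± 0.17, not called), on day 7 just above it (0.39 ± 0.17, not called), and on day 14 they overlapped. These were the 2 genes (0.0192%) whose change differed between days 7 and 3, at -3.22 ± 0.69 for Cyp2c12 (adjusted p = 0.0326) and -1.92 ± 0.24 for Gstp1 (adjusted p = 1.02e-09). The Cyp2c12 call was lost on leaving out any 1 of 9 of the 12 arrays, all but vehicle array 2 of day 7 and CPA arrays 1 and 3 of day 3, with adjusted p from 0.0566 to 0.18. No probe set differed between days 14 and 7 by limma, where 533 had an unadjusted p below 0.05.

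From day 1 to day 3 the change rose for 54 genes (0.519%) and dropped for 39 (0.375%). Hamp, the iron hormone hepcidin, read 13.86, 14.14 and 14.05 in CPA on day 1 against 12.13, 12.96 and 13.42 in vehicle (1.18 ± 0.49, adjusted p = 0.0899). On day 3 it read 11.38, 11.77 and 11.17 against 13.66, 12.88 and 13.09 and was lower by -1.77 ± 0.49 (adjusted p = 0.00654; 0.0587 without vehicle array 1). The CPA arrays thus stood above all vehicle arrays on day 1 and below all of them on day 3, and the step was -2.95 ± 0.69 (adjusted p = 0.00669). Ptgr1, a reductase of reactive lipids, turned the other way: it was at -1.45 ± 0.22 on day 1 and at 0.87 ± 0.22 on day 3, both called.

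The list of genes regulated by Nrf2, the sensor of oxidants and electrophiles, had members that rose on each day, and several of them are in the conjugation list as well. Of 30 measured, 9, 15, 8 and 6 rose and 1, 1, 0 and 1 fell, with list medians of 0.38, 0.58, 0.37 and 0.22. Gsr, which regenerates glutathione, read 10.57, 10.53 and 10.30 in CPA on day 1 against 8.77, 8.56 and 8.76 and rose by 1.77 ± 0.15, 1.93 ± 0.15, 1.60 ± 0.15 and 1.57 ± 0.15 on the 4 days. Akr7a3, an aldehyde reductase, rose by 2.21 ± 0.32 on day 1 and by 3.38 ± 0.32, 2.76 ± 0.32 and 2.81 ± 0.32 later. Both had no overlap with vehicle on any day. Srxn1, which repairs peroxiredoxins, fell back over time, from 1.66 ± 0.19 on day 1 to 0.16 ± 0.19 on day 14 (late minus early -0.84 ± 0.19, adjusted p = 0.00308). Nqo1, a quinone reductase, rose on days 3 (2.22 ± 0.50) and 7 (1.74 ± 0.50, adjusted p = 0.0181). The day 7 call of Nqo1 was lost without CPA array 1 or 2 or vehicle array 2 or 3 (adjusted p from 0.063 to 0.117).

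Calls for cholesterol synthesis genes were mainly falls on the first day and rises on the last. Of 20 measured, 6 fell and 1 rose on day 1 (list median -0.32), and 7 rose and none fell on day 14 (0.46). In sign, 18 of 20 members were negative on day 1 and 18 of 20 positive on day 14. Hsd17b7 was called on both days, lower on day 1 (-0.92 ± 0.29) and higher on day 14 (0.83 ± 0.29), but its other probe set on neither (-0.30 and 0.57). The late minus early test called 2 of the 20, Hsd17b7 (adjusted p = 0.107 in a fit of the compared groups only) and Tm7sf2 (1.04 ± 0.28, adjusted p = 0.0305), and the Tm7sf2 call was lost on leaving out any of 10 single arrays (adjusted p from 0.0544 to 0.172). Sqle, the squalene epoxidase, read 10.26, 10.05 and 10.83 in CPA on day 14 against 9.22, 8.78 and 9.20 (1.31 ± 0.34, adjusted p = 0.00468), and Idi1 rose by 1.31 ± 0.41. Insig1, a brake on the pathway that is itself sterol regulated, was lower on day 1 (10.85, 10.64 and 9.63 against 11.68, 12.40 and 11.53; -1.49 ± 0.40, adjusted p = 0.0031). CPA array 3 of day 1 was the lowest array for Insig1, Sqle, Idi1, Tm7sf2 and Hsd17b7, and without it the count of falls was 0 in place of 6. Without vehicle array 2 or 3 it was 3. On day 14 the count of 7 went to 3 without CPA array 1 or vehicle array 2 and to 2 without CPA array 3.

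Of 28 lipogenic genes, 5, 7, 2 and 4 fell on the 4 days and 1 rose, Me1 on day 3. Without vehicle array 2 the day 3 count was 4. The desaturase Fads2 was lower on each day, at -1.44 ± 0.23, -0.95 ± 0.23, -1.36 ± 0.23 and -1.39 ± 0.23, and the elongase Elovl5 reached -1.02 ± 0.12 on day 14. Scd, the stearoyl desaturase, read 8.15, 8.08 and 8.49 in CPA on day 3 against 9.91, 13.20 and 12.43, a change of -3.60 ± 0.71 (adjusted p = 4.1e-05) with a wide spread in vehicle. It was called again on day 14 (-2.65 ± 0.71), where the groups overlapped. Of 38 genes of fatty acid oxidation, 5, 2, 3 and 4 fell and 0, 3, 1 and 1 rose, with list medians of -0.10, 0.15, -0.07 and -0.07; the rises of day 3 were Eci1, Ech1 and Cpt2. Crot, which moves medium-chain fatty acids out of peroxisomes, read 7.77, 8.38 and 8.67 in CPA on day 7 against 10.73, 11.02 and 10.86. It was at -1.25 ± 0.29, -1.76 ± 0.29, -2.59 ± 0.29 and -2.38 ± 0.29 over the 4 days with no overlap on any. Ehhadh, a peroxisomal enzyme, was lower on day 1 only (9.20, 9.01 and 8.60 against 10.81, 11.29 and 10.94; -2.07 ± 0.24), and its step to day 3 was 2.11 ± 0.34 (adjusted p = 5.6e-06).

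Amino acid and urea enzymes of periportal hepatocytes had members that fell on each day. Of 28 measured, 8, 9, 8 and 4 fell and none rose, with list medians of -0.37, -0.44, -0.37 and -0.32. The count of 9 on day 3 went to 5 without CPA array 1 or vehicle array 1, and that of 8 on day 7 to 4 without vehicle array 2. Cps1, the first enzyme of the urea cycle, read 11.96, 12.06 and 12.25 in CPA on day 1 against 13.12, 13.13 and 13.20 (-1.06 ± 0.14, adjusted p = 1.13e-10) and was at -0.56 ± 0.14 on day 14, below the 1.5-fold limit; its other probe set was at -0.52 on day 1 and was not called. Cth, which makes cysteine, was at -1.41 ± 0.16 on day 1 and at -0.15 ± 0.16 on day 14, a tested late minus early difference of 0.83 ± 0.16 (adjusted p = 0.000171, and 0.0777 in a fit of the compared groups only). The drop thus narrowed for Cth, while Gnmt, the glycine methyltransferase, was called on days 1, 3 and 7 (-0.77 ± 0.24, -1.48 ± 0.24 and -1.29 ± 0.24). Of 16 genes of pericentral hepatocytes, 2, 3, 4 and 3 fell, with Gulo and Rgn on all days and Cyp1a2 from day 3, and 1 rose on each day, Aldh1a1, with list medians of -0.16, -0.35, -0.34 and -0.21. Oat is in both lists and was counted among the falls of each on day 7, and whether the 2 zones differed was not tested. In contrast Psat1, an enzyme of serine synthesis, was higher on all 4 days (1.57 ± 0.23, 1.17 ± 0.23, 1.38 ± 0.23 and 0.76 ± 0.23).

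Most members of the lists tied to steroid and growth hormone action were not called. Of 24 genes of growth hormone and insulin-like growth factor signalling, 2, 3, 3 and 3 fell on the 4 days and none rose. The growth hormone receptor Ghr read 9.67, 9.89 and 9.58 in CPA on day 1 against 10.88, 11.05 and 11.20 (-1.33 ± 0.17, adjusted p = 6.94e-11) and was at -0.68 ± 0.17 on day 14. Igfbp3, a carrier of insulin-like growth factors, was at -0.37 ± 0.22 on day 1 (not called) and at -0.95 ± 0.22, -1.33 ± 0.22 and -1.53 ± 0.22 on the later days, and the late minus early difference did not pass (adjusted p = 0.0509). Of 29 glucocorticoid responsive or steroid-metabolizing genes, 8, 6, 3 and 5 fell and 1, 2, 0 and 0 rose. The falls numbered 3 on day 3 without CPA array 2 and 2 on day 14 without CPA array 1. Serpina6, which carries corticosterone in blood, read 11.02, 10.85 and 10.96 on day 1 against 12.66, 12.59 and 12.55 and was lower on all days (-1.65 ± 0.16 on day 1 and -0.82 ± 0.16 on day 14). Of 18 male-pattern genes, 2, 4, 3 and 3 fell, with Car3 on all days and Sult1c3 on days 1, 3 and 7. The only rise was Cyp3a18 on days 1, 3 and 14, a gene that is in the drug oxidation list as well. In sign, 12, 15, 16 and 12 of the 18 were negative, with list medians of -0.13, -0.22, -0.24 and -0.16. Of 19 female-pattern genes, 1, 4, 2 and 2 rose, among them Cyp2c12 on day 3 and Sult2a2 from day 3, and 2, 1, 2 and 0 fell.

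Macrophage, stellate cell and endothelial lists had members that fell on each day, but the endothelial list had only 1 on day 1. Lymphocyte and bile duct lists had few calls. In a piece of whole liver, fewer cells of a type cannot be told apart from less RNA per cell. Of 22 macrophage markers, 8, 8, 3 and 9 fell and none rose, with list medians of -0.46, -0.51, -0.39 and -0.50; the log2 of their summed level was 13.103 to 13.591 over the CPA arrays and 13.542 to 13.984 over the vehicle arrays, without overlap on days 1, 3 and 14. Cd68 read 7.83, 8.25 and 7.92 in CPA on day 1 against 8.71, 8.57 and 8.91 (-0.73 ± 0.21, adjusted p = 0.00691), and the complement gene C1qa read 9.10, 9.73 and 9.37 against 10.46, 9.97 and 10.28 (-0.83 ± 0.23). Clec4f, which marks Kupffer cells, was lower on days 3 (-0.93 ± 0.26) and 14 (-0.92 ± 0.26). The groups did not overlap for these genes, but on day 1 the macrophage count was 1 without CPA array 1 and 4 without vehicle array 3, and on day 14 it was 5 without CPA array 3 or vehicle array 1.

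Of 49 stellate cell and matrix genes 7, 9, 11 and 14 fell on the 4 days, with list medians of -0.27, -0.24, -0.31 and -0.31; their log2 summed level was 13.830 to 14.114 in CPA and 14.279 to 14.480 in vehicle. The count of day 1 was 3 without vehicle array 1 and 4 without CPA array 3, that of day 3 was 5 without vehicle array 3 or CPA array 1, and that of day 14 stayed between 10 and 15. The late minus early test called none of them. The collagen Col3a1 read 9.45, 9.54 and 8.99 in CPA on day 14 against 10.85, 11.00 and 10.98 (-1.62 ± 0.21, adjusted p = 2.38e-10), after -0.66 ± 0.21 on day 1. Lrat, the retinol acyltransferase of stellate cells, was at -1.04 ± 0.19, -1.0 ± 0.19, -1.09 ± 0.19 and -1.06 ± 0.19 with no overlap on any day. Of 19 endothelial genes 1, 3, 3 and 5 fell, among them Kdr on days 3, 7 and 14, and the count of day 14 was 3 without CPA array 1 or vehicle array 1. Of 18 hepatocyte markers 1, 1, 1 and 0 fell, and the log2 of their summed level was 17.673 to 17.859 in CPA against 17.844 to 17.971 in vehicle, lower in CPA without overlap on days 1, 3 and 7. Of 20 bile duct markers 1, 1, 0 and 1 fell and 0, 2, 0 and 1 rose, the rises being Krt8 (0.79 ± 0.24) and Epcam (0.71 ± 0.25) on day 3 and Epcam (0.92 ± 0.25) on day 14, and markers of T, B and natural killer cells were called for 0, 1, 0 and 0 of 17 genes. Red cell genes were not called on days 1 to 7, and 3 of 6 fell on day 14. The part of cell make-up in the other results was not tested.

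**Figure D4:**
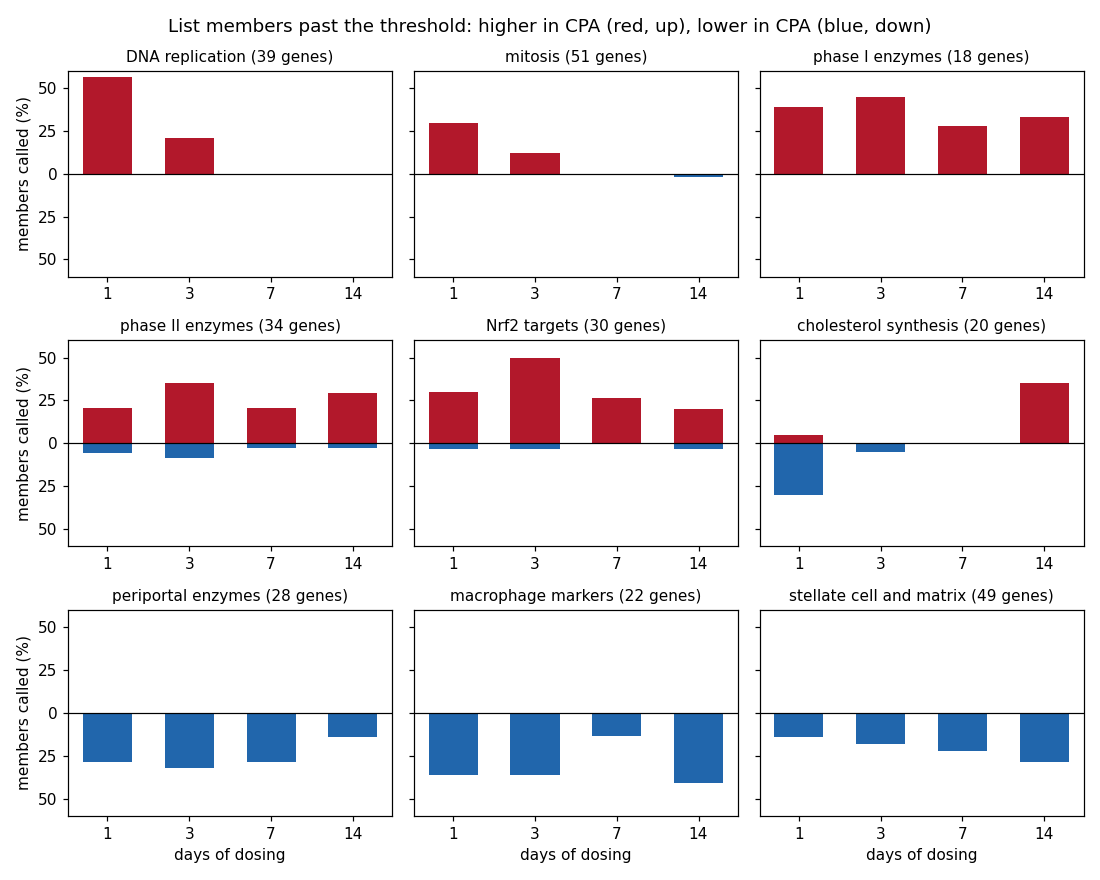
Share of the measured members of 9 gene lists that were called higher (red, up) or lower (blue, down) on each day of dosing. Replication and mitosis genes are called on days 1 and 3, oxidizing enzymes on all days, cholesterol synthesis genes lower on day 1 and higher on day 14, and the last 3 lists hold genes called lower, and none called higher, on all days.

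Large falls were also found for genes that none of the groups above holds. Nrep, a gene named for nerve regeneration, read 7.99, 8.38 and 7.96 in CPA on day 14 against 10.61, 11.22 and 11.28, and was at -1.66 ± 0.43, -2.26 ± 0.43, -2.31 ± 0.43 and -2.93 ± 0.43. Slc6a6, the taurine transporter, was at -0.79 ± 0.39 on day 1 (not called) and at -2.35 ± 0.39, -2.53 ± 0.39 and -2.04 ± 0.39 later; its other probe set was called on days 3 (-1.11) and 7 (-0.99) but not on day 14 (-0.64). Il33, an alarmin cytokine, read 8.15, 7.88 and 7.96 in CPA on day 1 against 9.92, 9.57 and 9.67, and was at -1.72 ± 0.27 that day and at -1.80 ± 0.27 on day 14. The fatty acid binding proteins Fabp7 (-1.80 ± 0.33 on day 14) and Fabp5 (-2.03 ± 0.43 on day 14) were lower as well. Nrep and Il33 had no overlap with vehicle on any day.

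CPA was set beside 2 other inducers of drug metabolism, DCB at 300 mg/kg and PB at 80 mg/kg, on the same days. The doses differ, the PB vehicle was carboxymethylcellulose, and DCB shares its vehicle arrays with CPA, so that CPA and DCB were compared directly, treated against treated. As a mean over the 4 days, CPA was above DCB for 55 genes (0.528%) and below it for 118 (1.13%). The change in CPA was above that in PB for 38 genes (0.365%) and below it for 125 (1.2%).

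The early replication response was larger in CPA than in DCB. On day 1 none of the 39 replication genes was called in DCB (median change 0.15; 0.00961% of all genes were called higher) or in PB (0.13; 0.0576%). The direct test on day 1 called 14 of 39 higher in CPA than in DCB (1.44% of all genes), with a difference of 2.30 for Mcm6 (adjusted p = 2.24e-14) and 1.46 for Pcna (adjusted p = 3.15e-14). On day 3 no mitosis gene was called in DCB (0.0961% of all genes called higher), but 8 of 51 were in PB (0.288% of all genes), with a list median of 0.45 in PB against 0.31 in CPA. Averaged over the days, 1 mitosis gene had a larger change in CPA than in PB, and the difference between CPA and PB on day 3 alone was not tested.

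Enzyme genes ranked differently by compound. Ces2c rose by 3.26 ± 0.23 on day 1 in CPA, by 2.44 in PB and by 0.32 in DCB, where it was first called on day 3 (1.54). Over the 4 days it was 1.69 ± 0.11 higher in CPA than in DCB (adjusted p = 7.15e-35) and differed from PB by -0.07 ± 0.16 (adjusted p = 0.835). Aldh1a1 was 0.34 ± 0.23 from DCB and -0.76 ± 0.33 from PB, neither past the test. Abcg5 set CPA apart from both, with differences of 2.04 ± 0.16 from DCB (adjusted p = 2.32e-27) and 2.22 ± 0.22 from PB (adjusted p = 5.42e-17), and it was not called on any day in DCB or PB. The same held for Sult2a2 (2.25 ± 0.13 and 2.20 ± 0.18) with the spread described above. Gsr was 1.15 ± 0.08 above DCB and 1.03 ± 0.11 above PB. Abcc3 was called on days 3, 7 and 14 in CPA and PB and on days 7 and 14 in DCB, and the difference was 1.54 ± 0.10 from DCB and 0.57 ± 0.14 from PB, the latter just below the 1.5-fold limit.

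Falls parted the compounds further. Crot was lower in CPA and not called in either of the other compounds on any day, with differences of -2.42 ± 0.15 from DCB (adjusted p = 2.26e-40) and -2.30 ± 0.21 from PB (adjusted p = 1.72e-20). Nrep (-1.90 ± 0.21 and -1.83 ± 0.30), Slc6a6 (-1.73 ± 0.19 and -2.07 ± 0.27) and Lrat (-0.98 ± 0.10 and -1.01 ± 0.14) were below both compounds too. Among lists, 10 of 38 fatty acid oxidation genes were lower in CPA than in DCB and 5 in the change against PB; the medians of this list in DCB against vehicle were 0.22, 0.26, 0.21 and 0.28 on the 4 days, and the 10 include Eci1 and Ech1, which rose in CPA on day 3. Further, 6 of 22 macrophage markers were lower in CPA than in DCB and 7 in the change against PB. The cholesterol synthesis rise of day 14 was seen at the same count in PB, 7 of 20 (0.442% of all genes were called higher in PB that day). The difference between CPA and PB on day 14 alone was not tested.

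**Figure D5:**
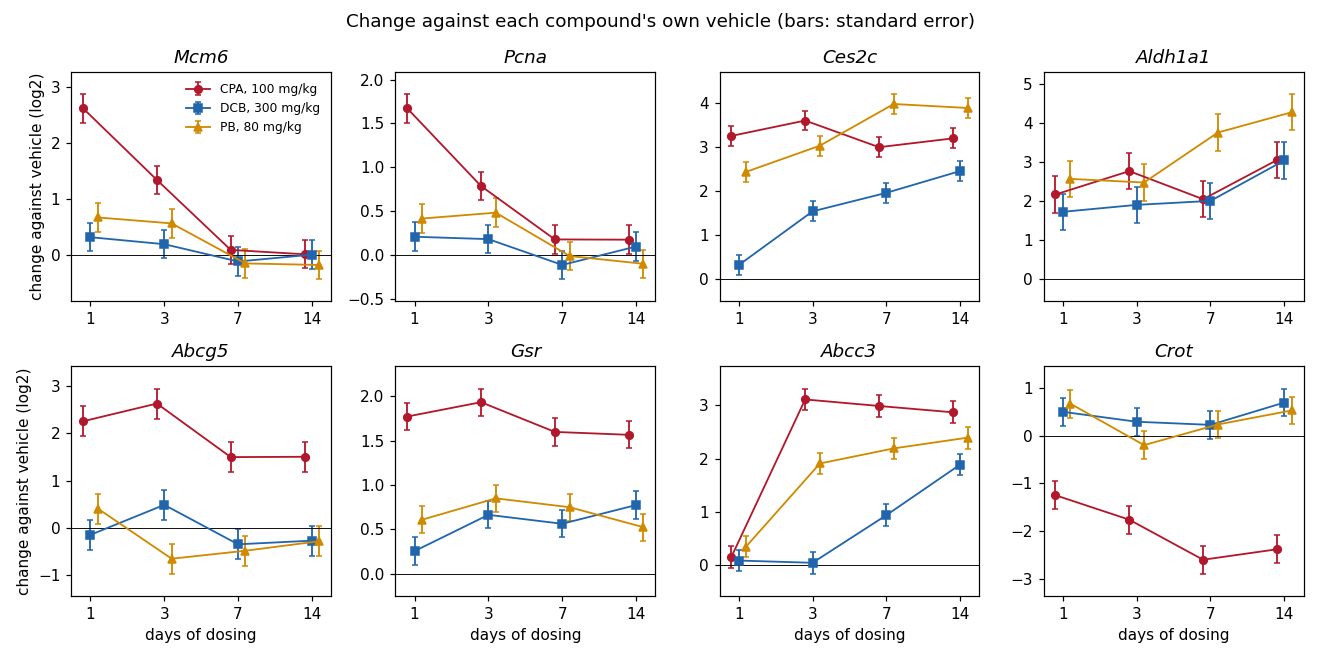
Change against each compound's own vehicle (log2, error bars are the SE of the fit) by day for CPA at 100 mg/kg, DCB at 300 mg/kg and PB at 80 mg/kg. The mean changes of Mcm6 and Pcna are highest in CPA on days 1 and 3, Abcg5 and Gsr are highest in CPA on all days and Crot lowest, while Ces2c and Aldh1a1 change more in PB than in CPA on days 7 and 14.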

How the data were processed

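Liver RNA was hybridised to the RAE230A array, 1 animal per array, and groups were taken from the sample titles. The deposited values were log2 signals that the authors made with robust multi-array averaging (RMA); its version is not stated in any source read here. The table held 15866 probe sets on 421 arrays, with array medians of 7.38 to 7.49, no detection call and 0 pairs of identical arrays, and it was not normalized again.

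A linear model with 1 mean per group was fitted to all arrays with limma 3.58.1 (R 4.3.3), with 285 residual and 4.67 prior degrees of freedom, and p-values were adjusted over all probe sets by the Benjamini-Hochberg method. Calls required both a 1.5-fold change and an adjusted p under 0.05. Both the SE and the p-values rest on the spread within all groups of the series, and not on that of the compared arrays alone. That spread is between the animals chosen for the arrays. The number of arrays limits the precision. Tested on simulated data for day 1 over 15866 probe sets, the fit recovered 99 of 100 changes of 2-fold and 100 of 100 of 4-fold, with 1 unchanged probe set called. The simulated noise was independent between arrays and had the same spread in every group, as the fit assumes. Groups of unequal spread, such as those of Sult2a2, were not simulated, so the result does not cover them.

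Of the probe sets, 12783 carried 1 symbol, 312 several and 2771 none here; 12748 symbols were updated through gene identifiers, and each of 10411 genes was represented by its brightest probe set over all arrays. Genes named outside the lists were the 10 largest changes in each direction per day with no overlap between groups, and the 8 largest per difference between days or compounds. Time classes used calls per day and the late minus early difference. The members and lists were chosen with earlier results of these data known. The alternatives tried were the omission of each array in turn, a fit restricted to the arrays being compared, quantile normalization, a minimum mean signal of 6, a prior variance that follows the mean, and the replicate number as a block; CPA minus DCB within each day was added after seeing the data. Promoters came from RefSeq (GRCr8). Figures were drawn with matplotlib 3.10.9 (Python 3.11.15).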

Additional observations from a re-analysis of the deposited data

Results flagged for a closer look

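These results were picked out because the change caused by the same dose of cyproterone acetate differed between days by a test of the difference itself. Between the late days (7 and 14) and the early days (1 and 3), 55 probe sets differed. Among the named genes the difference was 2.05 for Sult2a2, 1.30 for Abcc3 and 1.18 for Acss2, whose change went from -1.29 on day 1 to 0.60 on day 14. It was -1.92 for Mcm6, -1.89 for Cyp2c12 and -1.72 for the replication factor Pclaf. In a fit of the compared groups only, the adjusted p was 0.221 for Sult2a2 and 0.0576 for Acss2, and the call for Cyp2c12 was lost on leaving out some single arrays (adjusted p from 0.0514 to 0.0945).

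Between days 3 and 1, 107 probe sets differed. The difference was 3.65 for Cyp2c12, 2.96 for Abcc3 and 2.67 for Gsta3, and -2.95 for Hamp, -1.61 for Ccnd1 and -1.43 for the tubulin Tubb2a. The Gsta3 call was lost on leaving out most single arrays, with adjusted p from 0.0539 to 0.181. Between days 7 and 3, 2 probe sets differed, those of Cyp2c12 (-3.22) and Gstp1 (-1.92).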

How the results depend on the processing

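The counts of probe sets past the threshold (631, 448, 249 and 371 on days 1, 3, 7 and 14, 225 for CPA against DCB and 221 for CPA against PB) stayed within 1.5 times of these values under each of the alternatives listed with the methods. In a fit of the compared groups only they were 660, 432, 277, 368, 227 and 228. With an array left out, the late minus early count of 55 ranged from 34 (without CPA array 2 of day 3) to 82 (without CPA array 3 of day 3), and the day 3 minus day 1 count of 107 from 50 (without CPA array 3 of day 3) to 201 (without CPA array 2 of day 3). The day 7 minus day 3 count of 2 ranged from 1 to 6, and the day 14 minus day 7 count of 0 from 0 to 1. Against DCB on day 1 alone, an alternative added after seeing the data, 433 probe sets were called. With the replicate number as a block, the counts were 632, 448, 247 and 371 on the 4 days; same-numbered arrays deviated together with correlations from -0.156 to 0.169 over 12 pairs, so the numbers do not pair the animals. Of 146 values of named genes, 119 were called under every alternative in which they were fitted, 27 were not called under at least 1 and none changed sign. The minimum mean signal of 6 kept 140 of the 146 values, so the others were not tried under it. In a fit of the compared groups only, 12 of the 146 calls were lost. Of 1049 alternatives for the counts of list members, 1000 stayed within 1.5 times of the main count. The cause was not tested. With 3 animals per group on each day and no detection call, small changes of dim genes could not be told from the spread.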

Other observations

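Several groups had few members past the threshold in the livers of rats given cyproterone acetate (CPA). Over all genes, 2.28%, 1.92%, 1.2% and 2.05% were called lower on days 1, 3, 7 and 14, and 2.35%, 1.44%, 0.644% and 0.672% higher. Of 36 nuclear receptors and liver transcription factors, 1, 3, 0 and 1 fell on these days and none rose. The nuclear receptors PXR (Nr1i2) and CAR (Nr1i3) were not called on any day. Nr1i2 read 9.01, 8.96 and 9.0 in CPA against 8.89, 9.02 and 9.29 on day 1. The glucocorticoid receptor Nr3c1 was lower on days 1, 3 and 14 (-0.91, -0.65 and -0.76). Its other probe set was at -0.21, -0.32 and -0.42 on these days and was not called. Of 18 genes of bile acid synthesis, 0, 2, 1 and 1 fell, and Cyp7a1, its first enzyme, varied too widely between animals to be called (-0.89 ± 0.70 on day 1).

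Of 36 genes of a stress list, 4, 2, 3 and 1 rose and 0, 0, 0 and 2 fell, Creld2 (-0.76 ± 0.24) and Manf (-0.68 ± 0.16) on day 14, with list medians of 0.04, 0.05, -0.07 and -0.23. Psat1 rose on all days, and Psph rose on days 1 and 7 and Phgdh on day 7. Atf5, a transcription factor of this response, read 12.54, 12.68 and 12.69 in CPA on day 1 against 11.65, 11.28 and 11.72 (1.09 ± 0.19, adjusted p = 2.19e-06) and then came down, with a late minus early difference of -0.81 ± 0.19 (adjusted p = 0.00738). Hsd11b1, which regenerates active glucocorticoid, was lower on days 1 (-0.84 ± 0.18) and 3 (-0.82 ± 0.18) and overlapped with vehicle on days 7 and 14 (late minus early 0.92 ± 0.18, adjusted p = 0.000204). Of 29 acute phase genes 3, 4, 1 and 1 fell, with Mug1 on all days, and of 29 interferon genes 4, 3, 2 and 3 fell, with Irf8 on all days.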
